A study of Homo sapiens with 12 samples.

Results

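Glycolysis and the hypoxia response were followed in OCI-Ly7, a cell line from a diffuse large B-cell lymphoma, through 42 genes chosen by name: the glucose transporters and enzymes that turn glucose into lactate, the enzymes that set the pace of that route, the sensors of oxygen, and other genes switched on by hypoxia-inducible factor (HIF). Of the 42 genes, 38 had a probe set annotated with their symbol alone and were measured, among 19775 genes measured this way in the whole experiment. The lactate carriers SLC16A1 and SLC16A3 and the genes CA9 and MXI1P1 were not analysed here. The experiment compared 4 treatments, each for 24 h and with 3 arrays: 1 μM PLS-123, a covalent irreversible Btk inhibitor, 10 μM ibrutinib, 1 μM ibrutinib, also a covalent Btk inhibitor, and the vehicle alone. Btk is a tyrosine kinase that relays signals of the B-cell receptor. Total RNA of each sample was read on its own Affymetrix U133 Plus 2.0 array, 12 in all. Every gene is given by its brightest probe set, the one with the highest mean over the 12 arrays, as log2 of the deposited intensity. Since probes differ in brightness, treatment differences are read between arrays and not between genes. Brightness was compared across probe sets to pick the brightest of a gene and to mark dim ones. All cells were of this 1 line, and whether the 3 samples per treatment came from separate cultures is not stated, so the p values measure the spread between these samples.

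HIF is a transcription factor whose alpha subunit is destroyed while oxygen is plentiful. The prolyl hydroxylases EGLN1 and EGLN3 mark it for that destruction, and when oxygen is short it accumulates and binds DNA at a core motif written ACGTG or GCGTG. Many glycolytic enzyme genes are known HIF targets, along with genes for blood vessel growth, mitophagy, collagen hydroxylation and chromatin demethylation. In lymphocytes, signals from the antigen receptor are also known to raise glucose uptake and glycolysis.

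The core motif was looked for in the 300 bases around the transcription starts, from 250 bases before to 50 after, on both strands and with overlapping matches counted once. RefSeq windows (GRCh38.p14) were held for 33 of the 38 measured genes, 57 windows in all, and 39 of the 57, or 68.4%, held the motif, against 48.4% of all 35116 human windows of this length. By gene, 30 of the 33, or 90.9%, held it in at least 1 window, against 52.4% of 27305 human genes, and genes with more windows have more chances of a match. The genes were chosen partly as known HIF targets, and the human windows were not matched for base composition, so these shares are description only. ACGTG is also part of CACGTG, the E-box bound by MYC and other factors, so a match does not name a factor. It was found for 16 of 17 glycolytic enzymes and 7 of 8 other HIF targets that had a window. The windows of 4 genes are shown as examples of unlike responses and were not picked by a ranking. With PLS-123 and with 10 μM ibrutinib, ADM and P4HA2 were higher than with vehicle and ENO2 was lower. PGK1 was not called on its brightest probe set. Capitals mark the motif on either strand.
ADM, chr11:10304823-10305122, plus strand: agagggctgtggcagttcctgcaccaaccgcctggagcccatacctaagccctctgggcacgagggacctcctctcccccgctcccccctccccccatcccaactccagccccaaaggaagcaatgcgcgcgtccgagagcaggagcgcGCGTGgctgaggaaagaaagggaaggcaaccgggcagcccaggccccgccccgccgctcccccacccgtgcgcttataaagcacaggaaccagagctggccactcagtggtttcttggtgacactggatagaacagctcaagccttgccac
P4HA2, chr5:132227042-132227341, minus strand: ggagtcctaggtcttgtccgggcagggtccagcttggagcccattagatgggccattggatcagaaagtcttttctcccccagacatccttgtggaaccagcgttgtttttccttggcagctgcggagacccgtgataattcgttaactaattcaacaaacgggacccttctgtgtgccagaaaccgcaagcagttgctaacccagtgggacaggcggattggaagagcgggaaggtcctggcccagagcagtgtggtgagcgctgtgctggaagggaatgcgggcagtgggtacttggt
ENO2, chr12:6914330-6914629, plus strand: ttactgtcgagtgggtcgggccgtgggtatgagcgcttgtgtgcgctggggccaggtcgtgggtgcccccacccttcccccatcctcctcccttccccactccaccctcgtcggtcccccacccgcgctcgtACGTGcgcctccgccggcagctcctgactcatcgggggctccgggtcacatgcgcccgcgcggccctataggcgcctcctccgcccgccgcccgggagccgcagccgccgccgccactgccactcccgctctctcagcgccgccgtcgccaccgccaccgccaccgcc
PGK1, chrX:78103998-78104297, plus strand: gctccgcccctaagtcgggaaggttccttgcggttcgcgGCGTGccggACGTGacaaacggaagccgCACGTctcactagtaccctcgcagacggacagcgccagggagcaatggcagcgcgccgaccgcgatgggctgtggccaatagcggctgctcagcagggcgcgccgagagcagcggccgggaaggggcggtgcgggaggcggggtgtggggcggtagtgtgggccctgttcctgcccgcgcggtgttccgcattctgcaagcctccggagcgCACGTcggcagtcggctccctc
PGK1 held 4 matches, ADM and ENO2 held 1 each, and the window of P4HA2 held none. Counted by gene, 6 of 7 that rose with PLS-123 compared with vehicle had a match, as did 8 of 8 that fell and 16 of 18 that were not called. HK1 and PFKM, which both fell, have 7 windows each, some of them starting within 10 bases of each other, and only 2 of the 7 held a match in either gene.

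Deposited intensities ran from 2.09 to 15751, with array medians between 14.2 and 14.8. Dim probe sets are those whose mean log2 intensity did not reach 3.87, the middle value of the 54613 tested, and of the 38 genes only BHLHE40 was dim. The B-cell markers MS4A1, CD79A, CD79B and PAX5 were bright, whereas 7 of 8 measured T and NK cell markers, 4 of 6 myeloid markers and 5 of 9 stromal and epithelial markers were dim and none of these 3 lists held a call. Summed intensity of the 7 measured B-cell markers was 11149 to 11768 with PLS-123, 11810 to 12074 with 10 μM ibrutinib, 16690 to 17315 with 1 μM ibrutinib, against 16932 to 17539 with vehicle. Of these 7 markers, 1 was called higher and 6 lower with PLS-123, and 0 higher and 4 lower with 10 μM ibrutinib. What part these marker changes have in the results was not tested. A change in the number of cells and a change in RNA per cell cannot be told apart on such arrays. The log2 difference between the 3' and 5' control probe sets of ACTB, which grows as transcripts shorten, was 2.93 ± 0.20 with PLS-123, 2.74 ± 0.08 with 10 μM ibrutinib, 2.67 ± 0.18 with 1 μM ibrutinib, against 2.64 ± 0.04 with vehicle (SD, n = 3 arrays). Calls that were lost when this difference entered the model as a covariate are named with the gene. The same difference for GAPDH was 0.45 ± 0.02 with PLS-123, 0.39 ± 0.01 with 10 μM ibrutinib, 0.27 ± 0.03 with 1 μM ibrutinib, against 0.31 ± 0.04 with vehicle. No array of PLS-123 or 10 μM ibrutinib overlapped in it with an array of the other groups, and the part of this GAPDH difference in the results was not tested.

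The main question was whether glycolytic enzymes and other HIF targets responded together to treatment with the Btk inhibitors. They did not move as 1 block. Whether any response came from inhibition of Btk itself was not tested. With PLS-123, 8 of the 38 genes rose and 10 fell compared with vehicle (limma over all 12 arrays, Benjamini-Hochberg adjusted p under 0.05 over all probe sets). Over the whole array 6.36% of probe sets were higher and 10.4% lower, and among the 12040 genes whose brightest probe set was not dim, 11.2% were higher and 19.8% lower. With 10 μM ibrutinib, 8 genes rose and 8 fell, against 5.39% and 4.62% of all probe sets and 10.4% and 9.03% of the genes that were not dim. Both comparisons share the vehicle arrays, and 7 of the rising and 7 of the falling genes were called in both. Without any single vehicle array, or without array A of 10 μM ibrutinib, 5 genes fell with 10 μM ibrutinib in place of 8.

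Of the 17 glycolytic enzymes, 1 rose and 5 fell with PLS-123, and 11 did not pass the test. The median log2 fold change of the 17 was -0.12. It was -0.03 over all probe sets and -0.06 over the genes that were not dim. Of the other 11 HIF targets, 4 rose, 2 fell and 5 did not pass, with a median of 0.04. With 10 μM ibrutinib, 1 of the 17 enzymes rose and 3 fell, with a median of -0.10. Of the 11 targets, 5 rose and 2 fell, with a median of 0.21. The median was -0.01 over all probe sets and also over the genes that were not dim. The enzymes spanned log2 fold changes between -1.39 and 0.52 with PLS-123, and the other HIF targets between -0.69 and 1.89. Both lists were drawn up with earlier results of these data known, and the difference between them was not tested.

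**Figure D1:**
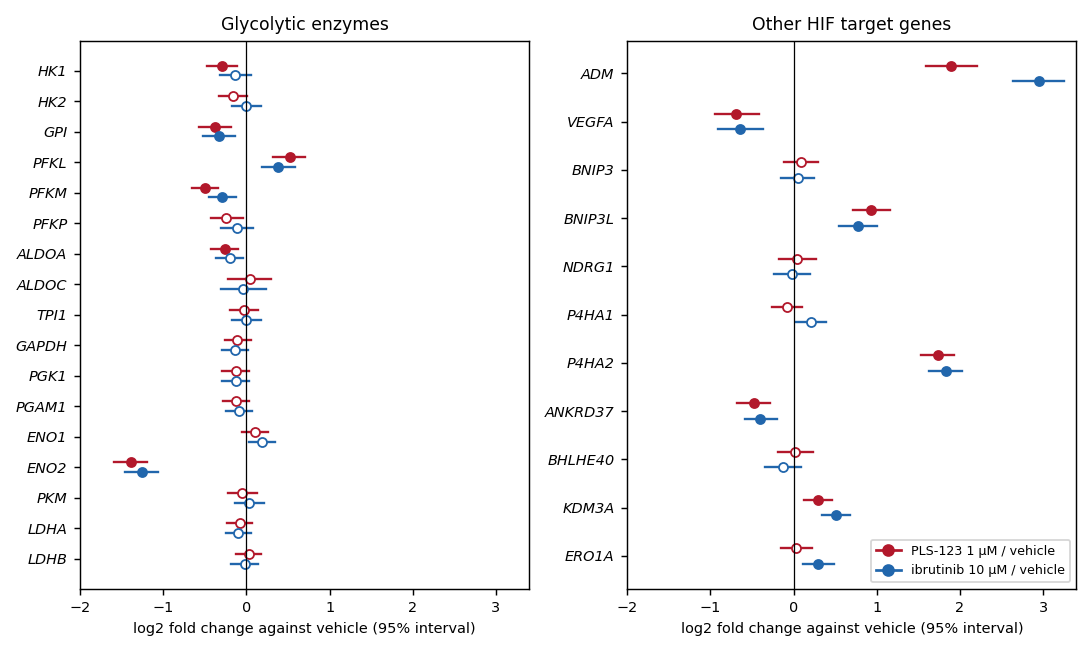
Log2 fold change against vehicle (x axis) of the 17 glycolytic enzymes (left) and the other 11 HIF targets (right), with PLS-123 in red and 10 μM ibrutinib in blue. Bars are 95% intervals of the limma fit, and filled points have an adjusted p under 0.05: most enzymes lie near 0, with ENO2 at -1.39 and -1.26, whereas ADM and P4HA2 lie far to the right and VEGFA and ANKRD37 to the left.

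ADM, VEGFA and BNIP3, all commonly used as readouts of HIF, differed in direction. ADM, which encodes the vasodilating peptide adrenomedullin, had log2 intensities of 5.52, 5.53 and 5.53 in PLS-123 arrays, 6.66, 6.59 and 6.50 in 10 μM ibrutinib arrays, 3.90, 4.16 and 3.59 in 1 μM ibrutinib arrays, against 3.38, 3.91 and 3.61 in vehicle arrays. The PLS-123 arrays all exceeded the vehicle arrays, those of 10 μM ibrutinib all exceeded the PLS-123 arrays, and the 1 μM ibrutinib arrays overlapped with vehicle. ADM was 3.72-fold higher with PLS-123 (log2 fold change 1.89 ± 0.14, SE, adjusted p = 6.3e-07) and 7.72-fold higher with 10 μM ibrutinib (2.95 ± 0.14, adjusted p = 9.6e-09) than with vehicle. The vehicle mean, 3.63, was itself below the median of all probe sets, where array signal follows RNA less closely.

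VEGFA, the principal growth factor for blood vessels, went the other way. Its log2 intensities were 7.41, 7.06 and 7.05 in PLS-123 arrays, 7.24, 7.25 and 7.17 in 10 μM ibrutinib arrays, 8.09, 7.65 and 7.76 in 1 μM ibrutinib arrays, against 7.95, 7.74 and 7.88 in vehicle arrays. Both PLS-123 and 10 μM ibrutinib gave values below every vehicle array, with a log2 fold change of -0.69 ± 0.12 (adjusted p = 0.00157) and -0.64 ± 0.12 (adjusted p = 0.00358), and 1 μM ibrutinib overlapped with vehicle. By the methods' t-test after adjustment VEGFA passed with 10 μM ibrutinib but not with PLS-123 (adjusted p = 0.0620). BNIP3, a mitophagy receptor of the outer mitochondrial membrane, read 9.09, 9.03 and 9.07 with PLS-123, 9.02 ± 0.08 with 10 μM ibrutinib (mean and SD, n = 3), 9.38, 9.16 and 9.15 with 1 μM ibrutinib, against 9.06, 8.84 and 9.01 with vehicle. Those of PLS-123 and of 10 μM ibrutinib overlapped with vehicle, and neither difference passed the test (0.09, 95% interval -0.11 to 0.29, adjusted p = 0.573, and 0.05, interval -0.15 to 0.25, adjusted p = 0.829). The 3 arrays of 1 μM ibrutinib lay above the vehicle arrays, but this difference of 0.26 did not pass the correction (adjusted p = 0.916).

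BNIP3L, the close relative of BNIP3 that clears mitochondria in maturing red cells, did respond. BNIP3L had log2 intensities of 8.58, 8.19 and 8.19 in PLS-123 arrays, 8.07, 8.23 and 8.17 in 10 μM ibrutinib arrays, 7.65, 7.49 and 7.47 in 1 μM ibrutinib arrays, against 7.42, 7.39 and 7.34 in vehicle arrays. Every array of PLS-123 and of 10 μM ibrutinib lay above every vehicle array. It rose by 0.93 ± 0.11 with PLS-123 (adjusted p = 3.6e-05) and by 0.77 ± 0.11 with 10 μM ibrutinib (adjusted p = 2.5e-04) on the log2 scale, and array A of PLS-123 stood above the other 2 of its group.

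The collagen prolyl 4-hydroxylase subunits also parted. P4HA2 had log2 intensities of 7.14, 7.04 and 6.90 in PLS-123 arrays, 7.02, 7.15 and 7.20 in 10 μM ibrutinib arrays, 5.80, 5.73 and 5.60 in 1 μM ibrutinib arrays, against 5.30, 5.39 and 5.20 in vehicle arrays. It was 3.31-fold higher with PLS-123 (log2 1.73 ± 0.09, adjusted p = 3.3e-08) and 3.55-fold higher with 10 μM ibrutinib (1.83 ± 0.09, adjusted p = 1.9e-08), with no overlap. All 3 arrays of 1 μM ibrutinib were above vehicle as well, by 0.41 ± 0.09, which had the smallest adjusted p of the 38 genes in that comparison, 0.728, and did not pass. P4HA1, which encodes the other catalytic subunit, was at -0.08 with PLS-123 (adjusted p = 0.596) and at 0.21 with 10 μM ibrutinib (adjusted p = 0.164).

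Among the remaining HIF targets, KDM3A, a histone H3 lysine demethylase, rose with PLS-123 (0.29 ± 0.08, adjusted p = 0.0208) and with 10 μM ibrutinib (0.51 ± 0.08, adjusted p = 6.1e-04), the first call being lost with the ACTB covariate (adjusted p = 0.0535) and without array A or B of PLS-123 or of vehicle (up to 0.0800). ANKRD37, an ankyrin repeat protein, fell with PLS-123 (-0.48 ± 0.09, adjusted p = 0.00225, or 0.0967 with the ACTB covariate) and with 10 μM ibrutinib (-0.40 ± 0.09, adjusted p = 0.0116). ERO1A, an oxidase that helps disulfide bonds to form in the endoplasmic reticulum, passed only with 10 μM ibrutinib (0.29 ± 0.09, adjusted p = 0.0468) and lost that call without any single array of PLS-123, 10 μM ibrutinib or vehicle or without array C of 1 μM ibrutinib, its adjusted p reaching 0.175, and with the ACTB covariate (0.0574). NDRG1 and the dim BHLHE40 had log2 fold changes between -0.13 and 0.04 with both compounds and did not pass.

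**Figure D2:**
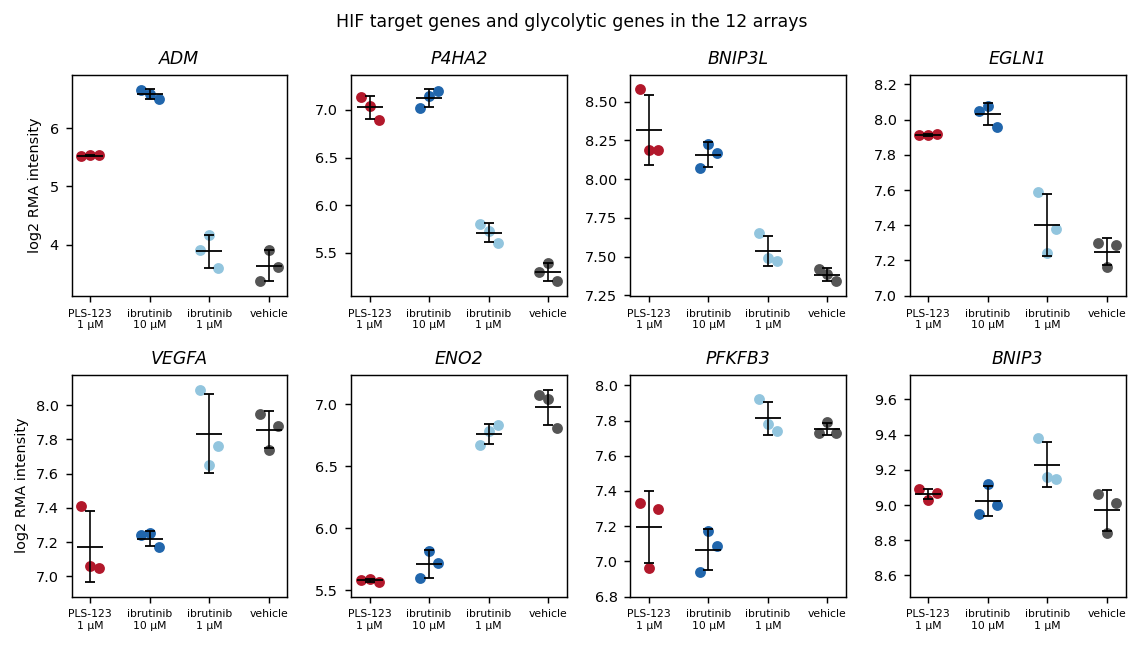
Log2 RMA intensity (y axis, its range differing by panel) of 8 genes in each array, with the mean and SD of the 3 arrays of a group in black. ADM, P4HA2, BNIP3L and EGLN1 are high with PLS-123 and 10 μM ibrutinib, VEGFA, ENO2 and PFKFB3 are low with both, and BNIP3 overlaps between these groups.

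Of the oxygen sensing genes, HIF1A, the regulated alpha subunit, had log2 intensities of 10.73, 10.61 and 10.73 in PLS-123 arrays, 10.64, 10.70 and 10.56 in 10 μM ibrutinib arrays, 10.80, 10.37 and 10.37 in 1 μM ibrutinib arrays, against 10.43, 10.36 and 10.35 in vehicle arrays. All arrays of PLS-123 and 10 μM ibrutinib were above all vehicle arrays, yet the differences of 0.31 ± 0.11 (adjusted p = 0.0708) and 0.26 ± 0.11 (adjusted p = 0.189) did not pass the correction, and array A of 1 μM ibrutinib was the highest of the 12. With PLS-123, HIF1A did pass by the methods' t-test after adjustment, after quantile normalization or centring, and without dim probe sets. It also passed with the 2 groups alone, an intensity trend, the mean of all probe sets, or without array A of 1 μM ibrutinib. With 10 μM ibrutinib HIF1A passed only with an intensity trend or without that array. HIF1A is regulated mostly at the protein level, which these arrays do not read.

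EGLN1, the main HIF prolyl hydroxylase and itself a HIF target, had log2 intensities of 7.91, 7.91 and 7.92 in PLS-123 arrays, 8.05, 8.08 and 7.96 in 10 μM ibrutinib arrays, 7.59, 7.24 and 7.38 in 1 μM ibrutinib arrays, against 7.30, 7.16 and 7.29 in vehicle arrays. The PLS-123 and 10 μM ibrutinib arrays were above every array of the other groups, and EGLN1 rose by 0.66 ± 0.09 (adjusted p = 2.3e-04) and 0.78 ± 0.09 (adjusted p = 7.0e-05). EGLN3, which serves the same reaction, read 4.10 ± 0.15 with PLS-123 (mean and SD, n = 3), 4.18, 3.81 and 4.02 with 10 μM ibrutinib, 4.14, 3.92 and 4.19 with 1 μM ibrutinib, against 4.17, 3.50 and 4.22 with vehicle. These groups overlapped, vehicle array B was the lowest of the 12, and no comparison passed (0.13 with PLS-123, 95% interval -0.23 to 0.50).

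The 2 glucose transporters moved in opposite directions. SLC2A1, or GLUT1, the transporter of most growing cells, read 7.55, 7.49 and 7.30 in PLS-123 arrays, 7.38, 7.45 and 7.66 in 10 μM ibrutinib arrays, 6.98, 6.91 and 7.02 in 1 μM ibrutinib arrays, against 6.90, 7.05 and 6.94 in vehicle arrays. It rose by 0.48 ± 0.10 with PLS-123 (adjusted p = 0.00327) and by 0.53 ± 0.10 with 10 μM ibrutinib (adjusted p = 0.00218), with no overlap with vehicle. SLC2A3, or GLUT3, a transporter of high glucose affinity, read 4.76, 4.41 and 4.55 in PLS-123 arrays, 4.57, 4.85 and 4.58 in 10 μM ibrutinib arrays, 5.40, 5.08 and 4.97 in 1 μM ibrutinib arrays, against 5.20, 5.03 and 5.06 in vehicle arrays. It was lower than in every vehicle array with both compounds, by -0.52 ± 0.13 with PLS-123 (adjusted p = 0.0112) and -0.43 ± 0.13 with 10 μM ibrutinib (adjusted p = 0.0435). That last call was lost without 7 of the 12 arrays, among them each vehicle array, with an adjusted p of up to 0.144. By the methods' t-test after adjustment neither transporter passed with PLS-123 (adjusted p = 0.0546 for SLC2A1 and 0.0791 for SLC2A3) or with 10 μM ibrutinib (0.0619 and 0.122).

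Hexokinases trap glucose in the cell as glucose 6-phosphate. HK1 had log2 intensities of 8.26, 8.25 and 8.21 in PLS-123 arrays, 8.44, 8.37 and 8.38 in 10 μM ibrutinib arrays, 8.37, 8.57 and 8.61 in 1 μM ibrutinib arrays, against 8.55, 8.60 and 8.44 in vehicle arrays. The PLS-123 arrays lay below every vehicle array (-0.29 ± 0.08, adjusted p = 0.0291), a call lost with the ACTB covariate (adjusted p = 0.409), without any single PLS-123 array and without vehicle array A or B (up to 0.112), and 10 μM ibrutinib overlapped with vehicle (-0.14, adjusted p = 0.403). HK2, the form that growing tumours often use, read 8.55, 8.48 and 8.55 in PLS-123 arrays, 8.70, 8.77 and 8.60 in 10 μM ibrutinib arrays, 8.61, 8.79 and 8.67 in 1 μM ibrutinib arrays, against 8.69, 8.67 and 8.71 in vehicle arrays. Its PLS-123 arrays lay below vehicle too, by -0.16 ± 0.08, and did not pass (adjusted p = 0.197).

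In the next 2 steps GPI, which turns glucose 6-phosphate into fructose 6-phosphate, fell with PLS-123 (-0.38 ± 0.09, adjusted p = 0.00812, or 0.247 with the ACTB covariate) and with 10 μM ibrutinib (-0.33 ± 0.09, adjusted p = 0.0271), the second call being lost without any single array of 10 μM ibrutinib or vehicle (up to 0.105). The 3 genes of phosphofructokinase, the committed step, differed in direction. PFKL, the liver form, had log2 intensities of 6.87, 7.06 and 6.80 in PLS-123 arrays, 6.77, 6.77 and 6.79 in 10 μM ibrutinib arrays, 6.25, 6.39 and 6.45 in 1 μM ibrutinib arrays, against 6.37, 6.33 and 6.48 in vehicle arrays. PFKM, the muscle form, read 9.05, 9.01 and 8.97 in PLS-123 arrays, 9.17, 9.21 and 9.27 in 10 μM ibrutinib arrays, 9.47, 9.58 and 9.61 in 1 μM ibrutinib arrays, against 9.49, 9.53 and 9.50 in vehicle arrays. Neither gene overlapped with vehicle under PLS-123 or 10 μM ibrutinib: PFKL rose by 0.52 ± 0.09 (adjusted p = 0.00135) and 0.38 ± 0.09 (adjusted p = 0.0144), and PFKM changed by -0.50 ± 0.07 (adjusted p = 3.7e-04) and -0.29 ± 0.07 (adjusted p = 0.0215). With 10 μM ibrutinib, PFKM lost its call without array A or B of that group or any vehicle array (up to 0.0810), and PFKL without array C of that group or vehicle array A or B (up to 0.0645). The second probe set of PFKL, also not dim, overlapped with vehicle and did not pass. It gave 0.22 with PLS-123 (adjusted p = 0.166) and 0.21 with 10 μM ibrutinib (adjusted p = 0.244). PFKP, the platelet form, was at -0.24 with PLS-123 and did not pass (adjusted p = 0.0922).

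Aldolase splits fructose 1,6-bisphosphate. ALDOA read 11.95, 11.97 and 11.93 in PLS-123 arrays, 11.99, 12.01 and 12.01 in 10 μM ibrutinib arrays, 12.11, 12.25 and 12.24 in 1 μM ibrutinib arrays, against 12.16, 12.26 and 12.20 in vehicle arrays. ALDOC, the brain form, read 5.33, 5.36 and 5.27 in PLS-123 arrays, 4.96, 5.33 and 5.44 in 10 μM ibrutinib arrays, 5.31, 5.28 and 5.12 in 1 μM ibrutinib arrays, against 5.48, 5.18 and 5.18 in vehicle arrays. ALDOA lay below every vehicle array with PLS-123 (-0.26 ± 0.07, adjusted p = 0.0285) and with 10 μM ibrutinib (-0.20 ± 0.07, adjusted p = 0.117), and only the first passed, a call lost with the ACTB covariate (adjusted p = 0.333), without any single PLS-123 array and without vehicle array B or C (up to 0.105). The ALDOC groups overlapped, with 0.04 and -0.04.

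The enolase isozymes parted as well. ENO2, the neuronal form, had log2 intensities of 5.58, 5.59 and 5.57 in PLS-123 arrays, 5.60, 5.82 and 5.72 in 10 μM ibrutinib arrays, 6.67, 6.78 and 6.83 in 1 μM ibrutinib arrays, against 7.07, 7.04 and 6.81 in vehicle arrays. ENO2 was lower with PLS-123 and 10 μM ibrutinib than in every other array, falling 2.63-fold with PLS-123 (log2 -1.39 ± 0.09, adjusted p = 2.2e-07) and 2.40-fold with 10 μM ibrutinib (-1.26 ± 0.09, adjusted p = 6.5e-07). ENO1, the ubiquitous form, read 11.38, 11.35 and 11.29 in PLS-123 arrays, 11.42, 11.39 and 11.45 in 10 μM ibrutinib arrays, 11.19, 11.25 and 11.25 in 1 μM ibrutinib arrays, against 11.25, 11.23 and 11.22 in vehicle arrays. Here both compounds lay slightly above vehicle, by 0.10 ± 0.07 (adjusted p = 0.367) and 0.19 ± 0.07 (adjusted p = 0.133), and neither passed.

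On their brightest probe sets, the lactate dehydrogenases and 5 further enzymes of the lower route did not pass with either compound. LDHA, which makes lactate from pyruvate, had log2 intensities of 12.97, 12.94 and 12.98 in PLS-123 arrays, 12.95, 12.95 and 12.92 in 10 μM ibrutinib arrays, 13.08, 13.06 and 13.07 in 1 μM ibrutinib arrays, against 13.09, 13.00 and 13.03 in vehicle arrays. LDHB read 13.24, 13.20 and 13.34 in PLS-123 arrays, 13.22, 13.21 and 13.21 in 10 μM ibrutinib arrays, 13.28, 13.18 and 13.22 in 1 μM ibrutinib arrays, against 13.21, 13.25 and 13.24 in vehicle arrays. The fold changes were -0.08 and -0.10 for LDHA, whose arrays lay below vehicle with both compounds, and 0.03 and -0.02 for LDHB, which overlapped. TPI1, GAPDH, PGK1, PGAM1 and PKM, the remaining enzymes between the triose phosphates and pyruvate, had log2 fold changes between -0.13 and -0.03 with PLS-123 and between -0.14 and 0.03 with 10 μM ibrutinib, and none of the 5 passed, although 2 further probe sets of PGK1 were lower with both compounds. Their 95% intervals with PLS-123 ran no lower than -0.29, for PGK1, and no higher than 0.14, for TPI1. In other settings some passed as lower. With PLS-123 these were GAPDH and PGAM1 by the methods' t-test after adjustment, and GAPDH, PGK1 and PGAM1 with an intensity trend. With 10 μM ibrutinib GAPDH passed in both of these settings, and GAPDH and PGK1 passed by the mean of all probe sets.

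Fructose 2,6-bisphosphate, made and removed by the PFKFB enzymes, is a potent activator of phosphofructokinase. PFKFB3, the form that favours its synthesis, read 7.33, 6.96 and 7.30 in PLS-123 arrays, 6.94, 7.17 and 7.09 in 10 μM ibrutinib arrays, 7.92, 7.78 and 7.74 in 1 μM ibrutinib arrays, against 7.73, 7.79 and 7.73 in vehicle arrays. PFKFB4 read 5.23, 5.32 and 5.18 in PLS-123 arrays, 4.92, 4.86 and 5.24 in 10 μM ibrutinib arrays, 5.47, 5.41 and 5.59 in 1 μM ibrutinib arrays, against 5.50, 5.53 and 5.50 in vehicle arrays. PFKFB3 lay below every vehicle array with both compounds and fell by 0.56 with PLS-123 (adjusted p = 0.00239) and by 0.69 with 10 μM ibrutinib (adjusted p = 6.3e-04) on the log2 scale. PFKFB4 was likewise below vehicle without overlap, and passed with 10 μM ibrutinib (-0.50 ± 0.10, adjusted p = 0.00437) but not with PLS-123 (-0.27 ± 0.10, adjusted p = 0.0849). The difference between the compounds for PFKFB4 did not pass either (0.23, adjusted p = 0.288). PFKFB2 did not pass in any comparison, at 0.16 with PLS-123.

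Pyruvate dehydrogenase kinases keep pyruvate out of the citric acid cycle. PDK1, a classical HIF target, rose with PLS-123 (0.37 ± 0.10, adjusted p = 0.0238) and was at 0.33 ± 0.10 with 10 μM ibrutinib (adjusted p = 0.0562). Its call was lost with the ACTB covariate (adjusted p = 0.110) and without array A or C of PLS-123 or of vehicle (up to 0.0975). PDK3 fell with PLS-123 (-0.38 ± 0.09, adjusted p = 0.00698, or 0.134 with the ACTB covariate) and did not pass with 10 μM ibrutinib (-0.17 ± 0.09, adjusted p = 0.267).

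**Figure D3:**
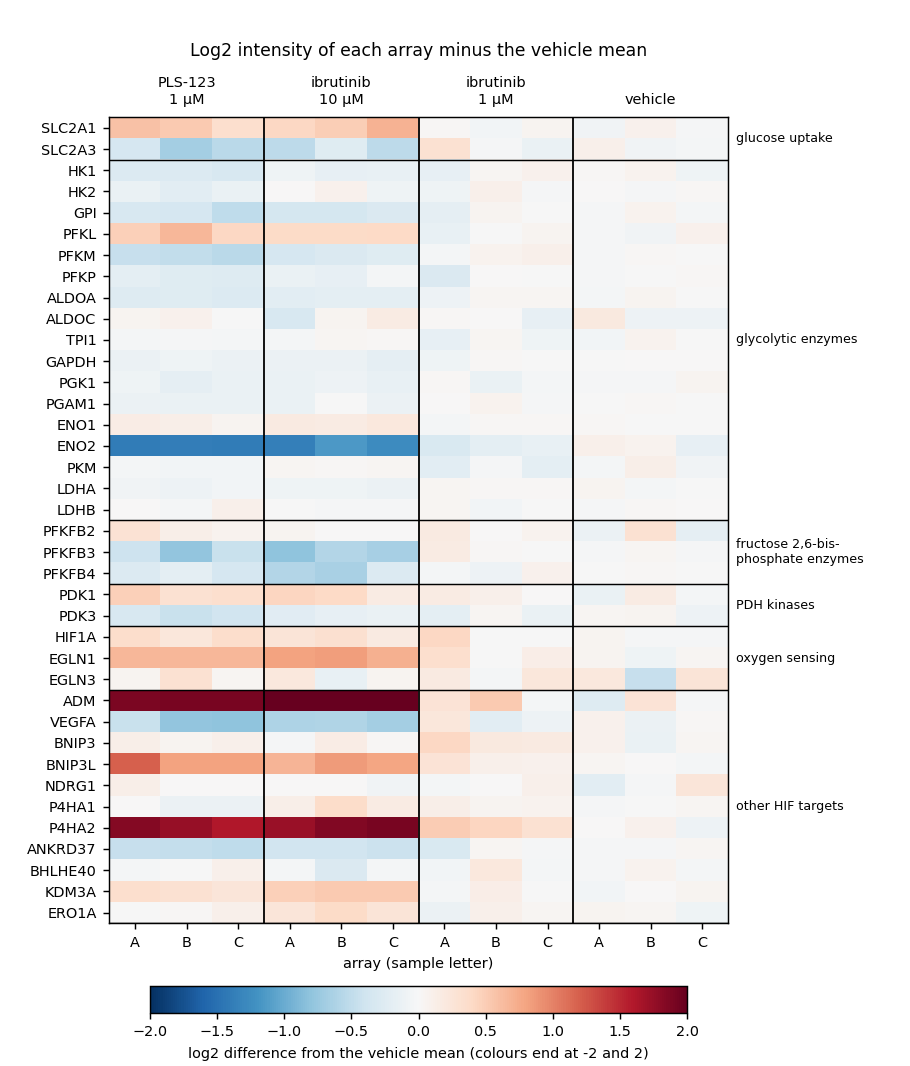
Log2 intensity of each of the 12 arrays (columns, by treatment and sample letter) minus the vehicle mean, for the 38 measured genes (rows, by role); red is above and blue below the vehicle mean, and the colours end at -2 and 2. The PLS-123 and 10 μM ibrutinib columns share their strong rows, ADM, P4HA2, BNIP3L and EGLN1 in red and ENO2 and PFKFB3 in blue, and the 1 μM ibrutinib columns are close to those of vehicle.

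Of the 38 genes, 27 had more than 1 probe set, and the choice of the brightest mattered for some. With PLS-123 against vehicle, 16 further probe sets that were not dim belonged to called genes, 14 had the same sign, 9 were called the same way and 1, of PDK1, was called the opposite way. PDK1 thus read 0.37 on its brightest probe set and -0.38 on another (adjusted p = 0.0468). PDK3 fell on all 5 of its probe sets, with log2 fold changes between -0.56 and -0.38. VEGFA fell on 3 of 4, the dim one being at -0.35, and P4HA2 rose on a further probe set by 1.76, its dim probe set being lower (-0.30, adjusted p = 0.0210).

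Of 18 further probe sets of genes that were not called, 4 passed, and all 4 were lower with PLS-123. PGK1 had 2 of them (-0.39, adjusted p = 0.00419, and -0.30, adjusted p = 0.0231), BNIP3 had 1 (-0.33, adjusted p = 0.00981) and HK2 had 1 (-0.33, adjusted p = 0.0419). With 10 μM ibrutinib, 6 of 24 such probe sets passed, 2 of PGK1 (-0.44, adjusted p = 0.00267, and -0.35, adjusted p = 0.0152) and 3 of PDK3 being lower and 1 of PDK1 higher (0.63, adjusted p = 0.0205). BNIP3L rose on its brightest probe set but a second one of nearly the same brightness gave 0.26 (adjusted p = 0.128) with PLS-123 and 0.46 (adjusted p = 0.0135) with 10 μM ibrutinib. EGLN1 rose on 2 of its 4 probe sets. In PFKL, ALDOA, TPI1, GAPDH and LDHB the brightest probe set carried the suffix _x_at, which marks probes that may also bind other transcripts.

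**Figure D4:**
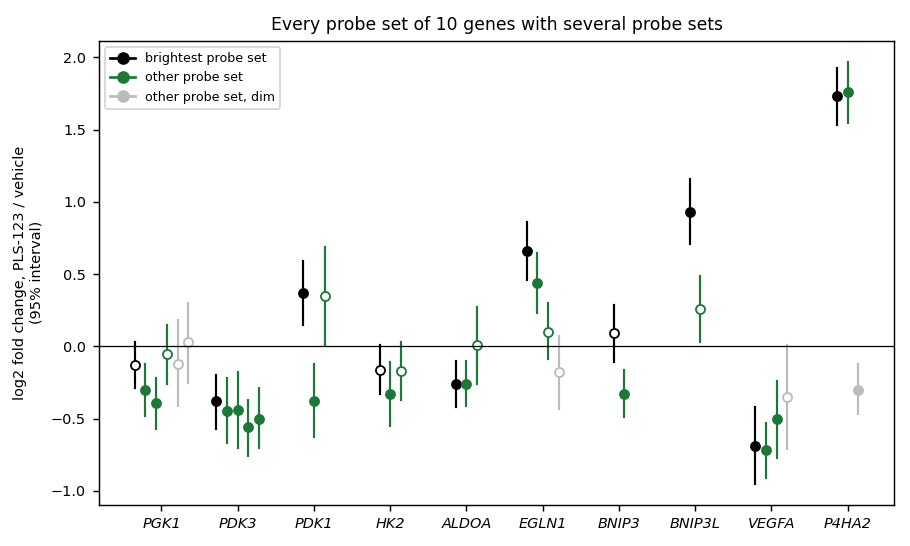
Log2 fold change of PLS-123 against vehicle (y axis, bars are 95% intervals) for every probe set of 10 genes, from brightest to dimmest within a gene; filled points have an adjusted p under 0.05. The 5 probe sets of PDK3 lie together, whereas those of PDK1 lie on both sides of 0 and those of BNIP3L, PGK1 and EGLN1 differ in size.

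At the equal dose of 1 μM, PLS-123 was compared with ibrutinib directly. With PLS-123, 7 genes were higher and 10 lower than with 1 μM ibrutinib, against 4.58% and 7.93% of all probe sets and 8.54% and 16.1% of the genes that were not dim. After quantile normalization the split was 8 and 6, and after centring on control probe sets 7 and 6. The lower count came to 5 without array B or C of 1 μM ibrutinib and 6 without array C of PLS-123. The higher genes were ADM (1.64 ± 0.14, adjusted p = 3.3e-06), P4HA2 (1.32 ± 0.09, adjusted p = 5.8e-07), BNIP3L (0.78), PFKL (0.55), EGLN1 (0.51), SLC2A1 (0.48) and KDM3A (0.26). The lower ones were led by ENO2 (-1.18 ± 0.09, adjusted p = 1.5e-06), VEGFA (-0.66), PFKFB3 (-0.62), SLC2A3 (-0.57) and PFKM (-0.54). GPI and ANKRD37 kept their calls in 14 and 17 of 23 other settings, and HK1, ALDOA, PDK3 and KDM3A, whose adjusted p lay between 0.0379 and 0.0474, kept theirs in 5, 6, 6 and 6. With the ACTB covariate these 6 genes and EGLN1 (adjusted p = 0.0593) lost their calls.

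Ibrutinib at 1 μM itself moved none of the 38 genes past the threshold compared with vehicle, as was the case for the whole array, with 0% of probe sets higher and 0% lower by limma. After Benjamini-Hochberg adjustment the methods' t-test called none of the 38 either, and its unadjusted p values were not used for calls. At an unadjusted p under 0.05 there were 2943 probe sets, 3 of them of these genes, P4HA2 (0.41), BNIP3 (0.26) and ENO2 (-0.22). The 38 log2 fold changes ran between -0.22 and 0.41, and the 95% intervals reached a median of 0.20 to either side.

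Between the 2 doses of ibrutinib, 7 genes were higher and 6 lower at 10 μM than at 1 μM, against 4.22% and 3.39% of all probe sets. Among the 12040 genes that were not dim, 977 were higher and 845 lower. ADM differed by 2.70 ± 0.14 (adjusted p = 3.1e-08), P4HA2 by 1.42 ± 0.09 (adjusted p = 3.0e-07) and ENO2 by -1.04 ± 0.09 (adjusted p = 5.3e-06). The other higher genes were EGLN1 (0.63), BNIP3L (0.62), SLC2A1 (0.53), KDM3A (0.48) and PFKL (0.41), and the other lower ones were PFKFB3 (-0.75), VEGFA (-0.61), SLC2A3 (-0.48), PFKFB4 (-0.48) and PFKM (-0.34). SLC2A3 lost its call without array A or B of 1 μM or array A or C of 10 μM ibrutinib (adjusted p up to 0.115), and PFKM without array C of 1 μM or array A of 10 μM ibrutinib (up to 0.0600).

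PLS-123 at 1 μM and ibrutinib at 10 μM were at unlike doses, so their values are set side by side without a comparison of potency. Among the 38 genes none was higher with PLS-123 and only ADM was lower, against 0.0513% and 0.132% of all probe sets and 12 and 28 of the 12040 genes that were not dim. ADM was -1.05 ± 0.14 on the log2 scale (95% interval -1.36 to -0.75, adjusted p = 0.00900), with PLS-123 at 5.52 to 5.53 and 10 μM ibrutinib at 6.50 to 6.66. This call was lost without array C of PLS-123 (adjusted p = 0.0512), without array B of 10 μM ibrutinib (0.0566) and with the ACTB covariate (0.0893). At an unadjusted p under 0.05 there were 6 further genes that did not pass the correction: P4HA1 (-0.29), ERO1A (-0.26), KDM3A (-0.22), PFKM (-0.21), PDK3 (-0.21) and PFKFB4 (0.23). For the 17 glycolytic enzymes the differences ran between -0.21 and 0.13, and the intervals of the 38 genes reached at most 0.36 to either side.

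MXI1, which encodes a MAX-binding antagonist of MYC, is not among the 42 genes and was picked after its values were seen. Its mean log2 intensity was 8.94 ± 0.06 with PLS-123, 8.97 ± 0.01 with 10 μM ibrutinib, 7.72 ± 0.06 with 1 μM ibrutinib, against 7.54 ± 0.07 with vehicle (SD, n = 3), and no array of PLS-123 or 10 μM ibrutinib overlapped with vehicle. It was 2.64-fold higher with PLS-123 (adjusted p = 3.0e-08) and 2.70-fold higher with 10 μM ibrutinib (adjusted p = 2.4e-08) than with vehicle.

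Genes around these pathways were read from 8 further lists with 165 measured genes, with up to 4 called genes named from each list by the smallest adjusted p for PLS-123 against vehicle. Their counts stand beside the shares over all genes that were not dim, of which 11.2% were higher and 19.8% lower with PLS-123. With dim genes included, 1492 of 19775 genes were higher and 2536 lower, and some of these lists hold dim genes. Of 15 regulators of HIF, 2 rose and 1 fell with PLS-123. SIAH1, a ubiquitin ligase that removes prolyl hydroxylases, rose by 0.95 with PLS-123 (adjusted p = 2.7e-06) and 1.02 with 10 μM ibrutinib. CITED2, a competitor of HIF for its coactivator, rose by 1.42 with PLS-123 (adjusted p = 8.7e-05) and 0.80 with 10 μM ibrutinib, and SIAH2 was at -0.57 (adjusted p = 2.4e-04) with PLS-123 and -0.37 with 10 μM ibrutinib. Of 38 further HIF target genes, 3 rose and 7 fell with PLS-123, or 7.89% and 18.4%, with a median of -0.06. Since 12 of the 38 were dim, the shares over genes that were not dim are not a like comparison. CXCR4, a chemokine receptor, rose by 0.83 (adjusted p = 3.6e-05) and NARF by 0.62 (adjusted p = 5.1e-04), while DDIT4, a brake on mTORC1, was at -0.98 (adjusted p = 5.8e-05) and UGP2, of glycogen synthesis, at -0.51 (adjusted p = 2.4e-04).

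Of 22 genes of glucose sensing and of restraint on glucose uptake, 4 rose and 3 fell with PLS-123, and 6 rose and 1 fell with 10 μM ibrutinib. TXNIP, an arrestin that removes glucose transporters from the cell surface, had mean log2 intensities of 8.41 with PLS-123, 8.53 with 10 μM ibrutinib and 6.58 with vehicle, a rise of 1.83 with PLS-123 (adjusted p = 8.9e-09) and 1.95 with 10 μM ibrutinib (adjusted p = 5.9e-09). ARRDC3, a related arrestin, rose by 1.01 (adjusted p = 1.9e-05) and MLXIP, the glucose-sensing partner of MLX, by 0.71 (adjusted p = 3.4e-04) with PLS-123, and the dim PPP1R3B was at -0.59. Of 24 other transporters and glycolytic isozymes, 4 rose and 1 fell. SLC2A5, the fructose transporter, rose by 1.16 with PLS-123 (adjusted p = 1.3e-07) and by 1.02 with 10 μM ibrutinib, and SLC2A13, a myo-inositol transporter, by 0.52 (adjusted p = 0.00224), whereas SLC2A6 was at -0.37 (adjusted p = 0.00757) and the dim FBP2 at 0.42.

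Downstream of pyruvate, 4 of 24 genes of pyruvate entry and the citric acid cycle rose and 9 fell with PLS-123, 16.7% and 37.5%. OGDH was at -0.65 (adjusted p = 1.5e-04), IDH3A at -0.67 (adjusted p = 8.3e-04) and MDH1 at -0.53 (adjusted p = 1.9e-04), all enzymes of the cycle, and IDH2, the mitochondrial NADP-linked isocitrate dehydrogenase, rose by 0.59 (adjusted p = 4.5e-04). Of 24 respiratory chain genes 8, or 33.3%, fell and none rose, with a median of -0.15, and ATP5MC1, a subunit of the ATP synthase rotor, was at -0.34 (adjusted p = 0.00520), COX6A1 at -0.30, UQCRC1 at -0.32 and NDUFA9 at -0.27. In the serine branch that leaves glycolysis, 2 of 10 fell, PSAT1 (-0.44, adjusted p = 0.0158) and PHGDH (-0.34, adjusted p = 0.0162). This share of 20.0% stands against 19.8% over all genes that were not dim, but 3 of the 10 were dim, so the sets are unlike. In the pentose phosphate pathway 1 of 8 rose, PRPS2 (0.44, adjusted p = 0.0244), and 1 fell, PRPS1 (-0.28, adjusted p = 0.0261).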

How the data were processed

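RNA of the 12 samples was read on Affymetrix U133 Plus 2.0 arrays. According to their processing notes the authors normalized the arrays by RMA, version not stated, and deposited the values as intensity on the linear scale, of which log2 was taken here with nothing added. Of 54675 probe sets, 62 controls were left out and 54613 tested. GEO's annotation gives 41091 of them a single gene symbol, 1801 several and 11721 none. Raw scans were not used, all per-sample columns of the table were used (0 set aside), and depth has no equal on arrays, where the number of arrays limits the precision.

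limma 3.58.1 (R 4.3.3) modelled the 12 arrays by 4 group means (8 residual degrees of freedom) and eBayes moderation. P values are two-sided and were Benjamini-Hochberg adjusted over all tested probe sets of each of 6 comparisons. An adjusted p under 0.05 was called. The fit was tested on simulated data. The genes and the 12 further lists were chosen with earlier results of these data known. Array values are given for ADM, VEGFA, BNIP3, HIF1A, the 5 largest called rises and falls with PLS-123 and with 10 μM ibrutinib against vehicle, called genes between those treatments, and isozyme pairs. Of each further list, up to 4 called genes with the smallest adjusted p were named.

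The main fit did not pair arrays by sample letter. Same-letter arrays had residual correlations of -0.209 to 0.152, which cannot settle whether the letters mark pairs. The alternatives tried were the methods' t-test with Benjamini-Hochberg adjustment, the methods' fold of 1.5 with an unadjusted limma p under 0.05, limma on 2 groups alone or with an intensity trend, quantile normalization, a block for the letter, the ACTB difference as a covariate, centring on 100 normalization control probe sets, the fit without dim probe sets, the fit on 1 probe set per gene, the mean of all probe sets of a gene, and leaving out each array in turn. Columns of the authors' own comparisons were not used.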

Additional observations from a re-analysis of the deposited data

How the results depend on the processing

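No called gene changed direction under any alternative, including quantile normalization and centring on control probe sets. All calls held with every array left out in turn for 14 of 18 genes with PLS-123 against vehicle, 11 of 16 with 10 μM ibrutinib against vehicle, 11 of 17 with PLS-123 against 1 μM ibrutinib, 0 of 1 with PLS-123 against 10 μM ibrutinib and 11 of 13 between the ibrutinib doses. Under every alternative 5, 7, 3, 0 and 5 of them held. In the same order the fold of 1.5 removed 12, 9, 11, 0 and 6 calls and the methods' t-test 7, 4, 13, 1 and 7. The cause of these changes was not tested.

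With the fold of 1.5 and an unadjusted p, 4 genes were higher and 2 lower for PLS-123 over vehicle, 4 and 3 for 10 μM ibrutinib over vehicle, 3 and 3 with PLS-123 than with 1 μM ibrutinib, and 4 and 3 at 10 μM than at 1 μM ibrutinib. With the methods' t-test after adjustment, 6 genes were higher and 11 lower for PLS-123 over vehicle and 7 and 8 for 10 μM ibrutinib over vehicle. SLC2A1, SLC2A3, GPI, PFKL, PFKFB3, PDK1 and VEGFA lost their calls with PLS-123, and SLC2A1, SLC2A3, PFKFB4 and ERO1A with 10 μM ibrutinib. Calls were gained by HK2, PFKP, GAPDH, PGAM1, PFKFB4 and HIF1A with PLS-123, and by ALDOA, GAPDH and ENO1 with 10 μM ibrutinib. With that test PLS-123 against 1 μM ibrutinib had 2 higher and 3 lower, 10 μM against 1 μM ibrutinib 4 and 3, and PLS-123 against 10 μM ibrutinib 0 lower. An intensity trend gave 2 lower genes in that last comparison and 11 between the ibrutinib doses. With the ACTB covariate, 5 genes were lower with PLS-123 than with vehicle, 5 than with 1 μM ibrutinib and 0 than with 10 μM ibrutinib. The lower count of PLS-123 against 1 μM ibrutinib was also 5 with the 2 groups alone, 6 after quantile normalization and 6 after centring.

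Leaving out single arrays, the lower count ran between 5 and 8 for 10 μM ibrutinib against vehicle, between 5 and 10 for PLS-123 against 1 μM ibrutinib, and between 0 and 1 for PLS-123 against 10 μM ibrutinib. With the replicate block, 8 genes were higher and 10 lower for PLS-123 over vehicle, 7 and 8 for 10 μM ibrutinib over vehicle, 6 and 7 with PLS-123 than with 1 μM ibrutinib, 0 and 1 than with 10 μM ibrutinib, 7 and 6 between the ibrutinib doses and 0 and 0 with 1 μM ibrutinib than with vehicle. Whether the letters mark pairs is not stated, and these block values cannot settle it. Intensities near the dim limit of 3.87 bound what could be seen for BHLHE40, for EGLN3 and for ADM in vehicle.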
